A study of Homo sapiens with 4 samples.

Results

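The 10 human histone deacetylase (HDAC) genes other than HDAC10 that depend on zinc, namely HDAC1 to HDAC9 and HDAC11, were followed in leukemia cells kept with or without periplocin. They were taken from the deposited table by matching its Ensembl identifiers to gene symbols, and all 10 were found among its 20348 genes. The RNA came from K562, a chronic myeloid leukemia line that can switch on erythroid genes, and from THP-1, an acute monocytic leukemia line, both human. Each was cultured for 72 h with DMSO, the control, or with 100 nM periplocin, a cardiac glycoside of Cortex periplocae, and each of the 4 conditions was sequenced as 1 poly-A library. In the labels, sample titles describe each control as blank, whereas library names give DMSO. Because there is 1 library per condition, no difference below has a replicate check, and every interval and p-value on a single line compares 2 libraries and covers counting error only.

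HDACs remove acetyl groups from lysines of histones and other proteins, and deacetylated histones pack DNA more tightly. Class I (HDAC1, HDAC2, HDAC3 and HDAC8) is largely nuclear, and its first 3 members work inside corepressor complexes. Class IIa (HDAC4, HDAC5, HDAC7 and HDAC9) moves between nucleus and cytoplasm, has little enzymatic activity of its own on acetylated lysine, and holds MEF2 transcription factors in check. Class IIb holds HDAC6, a deacetylase of tubulin, beside HDAC10, and HDAC11 alone makes up class IV. HDAC inhibitors are used in the clinic against some blood cancers.

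The catalytic pocket shows what separates class IIa from the rest. In class IIa a histidine stands where the other classes have a tyrosine that takes part in catalysis. The following 30-base stretches of the coding sequence of the longest coding transcript of each gene, read 5′ to 3′ from GENCODE release 29 on GRCh38, are shown because they carry that exchange, and the capitals mark its codon.
HDAC1: ctgggaggcggtggtTACaccattcgtaac
HDAC2: cttggaggaggtggcTACacaatccgtaat
HDAC3: ctgggtggtggtggtTATactgtccgaaat
HDAC8: ttgggaggaggaggcTATaaccttgccaac
HDAC4: gccctcgagggaggcCACgacctgaccgcc
HDAC5: gccctggagggaggcCATgacttgaccgcc
HDAC7: gccttggagggtggcCATgacctcacagcc
HDAC9: gctctagaaggaggaCATgatctcacagcc
HDAC6, first domain: tctctggagggtggcTACaacctccgcgcc
HDAC6, second domain: atcctagagggtggcTATaacctgacatcc
HDAC11: gtgacctcaggcgggTACcagaagcgcaca

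The codon reads TAC or TAT, which encode tyrosine, in the 6 genes outside class IIa, and CAC or CAT, which encode histidine, in all 4 genes of class IIa. In HDAC5 it is codon 1007 of 1123, in exon 24 on the minus strand, at chr17:44079204-44079206. In HDAC7 it is codon 899 of 1014, in exon 23 on the minus strand, at chr12:47785812-47785814. In HDAC9 it is codon 959 of 1069, in exon 22 on the plus strand, at chr7:18935880-18935882. In HDAC4 it is codon 976 of 1084, at chr2:239066782-239066784 on the minus strand, and in HDAC11 it is codon 304 of 347, in exon 10, at chr3:13504549-13504551 on the plus strand. The stretch is present in 4 of 17 annotated coding transcripts of HDAC9, against 10 of 16 for HDAC11 and 9 of 23 for HDAC7. For HDAC2 the stretch is in 3 of 12, and for HDAC6 each of its stretches is in 8 of 25. A gene's count adds up all of its transcripts, so for no member does it tell how much RNA encodes the catalytic domain.

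Library totals, which set the precision, lay between 16381149 and 20622694 counts. Mitochondrially encoded genes held 5.62% of the counts in K562 DMSO and 2.07% in K562 periplocin, and 5.24% and 3.92% in the THP-1 libraries. The lines matched their labels by markers. All 15 erythroid markers had more than 3 counts in both K562 libraries, and all 12 monocyte and macrophage markers did in both THP-1 libraries. So did 8 and 7 monocyte and macrophage markers in K562 DMSO and periplocin, and 8 and 6 erythroid markers in those of THP-1. GYPB and AHSP had 0 counts in both THP-1 libraries. In CPM (counts scaled to one library total), erythroid markers summed to 3148 in K562 DMSO and 252 in THP-1 DMSO, where TFRC alone held 246. Monocyte and macrophage markers summed to 111 and 1358. Megakaryocyte markers summed to at most 12.0 and lymphoid markers to at most 8.73 CPM in any library. Among the HDAC genes no stretch of 50 bases is shared between members, so exact matches of that length do not mix the members' reads. Some shared sequence with other annotated genes, which made up 8.77% of such stretches in HDAC7 and 7.35% in HDAC3, all with antisense genes, 4.98% in HDAC11, all with HDAC11-AS1 on the opposite strand, and 5.27% in HDAC8, mostly with AL133500.1 on the same strand. Whether the counting used strand is not given in the sources used here, so reads from these genes and their antisense partners cannot be told apart.

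**Figure D1:**
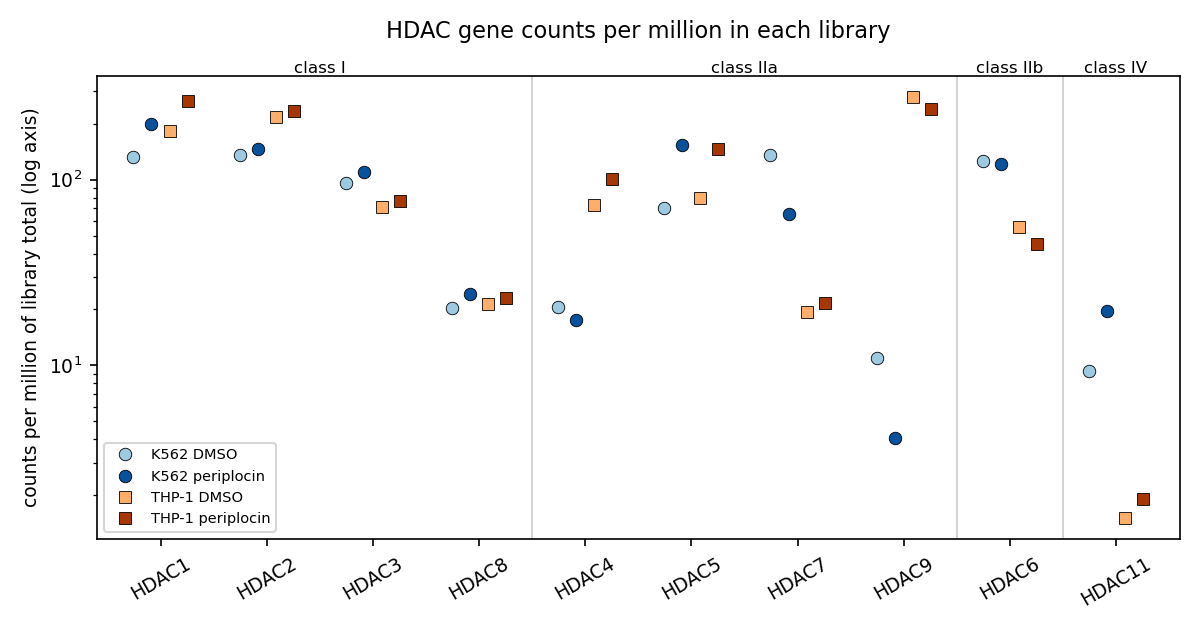
CPM, counts scaled to the library total, on a log axis for the 10 HDAC genes, 1 point per library, with circles for K562 and squares for THP-1, pale for DMSO and dark for periplocin. HDAC9 in THP-1 stands far above HDAC9 in K562, and HDAC11 is the lowest gene in both THP-1 libraries.

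To rank the genes against each other, counts were divided by the length of the longest coding transcript and scaled to one total per library (TPM). In K562 DMSO, HDAC1 had the highest level at 146.51 TPM, followed by HDAC3 at 115 TPM, HDAC7 at 98.0 TPM and HDAC6 at 70.5 TPM, each apart from its neighbour beyond counting error. HDAC2 (32.2 TPM), HDAC5 (31.2 TPM) and HDAC8 (29.4 TPM) came next, and neighbours among these 3 did not differ beyond counting error. HDAC9 at 8.02 TPM and HDAC11 at 7.38 TPM did not differ either, and HDAC4 was last at 5.41 TPM. In THP-1 DMSO, HDAC9 (210.03 TPM) and HDAC1 (207 TPM) shared the top, with no difference beyond counting error. HDAC3 followed at 88.1 TPM and HDAC2 at 52.9 TPM, then HDAC5 at 36.4 TPM, HDAC6 and HDAC8 at 32.1 TPM each, HDAC4 at 19.7 TPM, HDAC7 at 14.4 TPM and HDAC11 at 1.23 TPM. HDAC1 in THP-1 periplocin, at 327 TPM, was above 97.1% of all genes with a count in that library. The order depends on the length used. The HDAC2 transcript used is 9874 nucleotides long, of which 1464 are coding. With coding lengths alone HDAC2 reached 106 TPM in K562 DMSO, beside 105 TPM for HDAC1. HDAC9 did not share the top of THP-1 DMSO with either other length. With coding lengths it had 103 TPM there, against 174 TPM for HDAC2 and 149 TPM for HDAC1. With the union of all exons as the length it had 66.2 TPM, against 183 TPM for HDAC1. HDAC8 in K562 DMSO also depended on the length, with 3.43 TPM by exon unions, against 34.0 TPM for HDAC2 and 36.0 TPM for HDAC5.

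The control libraries showed how the lines differ before treatment. Of the 10 genes, 5 were called, meaning an adjusted p under 0.05 in edgeR's exact binomial test and a difference of at least 2-fold, where 41.1% of all 16425 genes tested were called (21.7% higher and 19.4% lower in THP-1), so the number of HDAC genes is close to that background. At any fold 9 of the 10 had an adjusted p under 0.05, beside 74.8% of all genes (38.5% higher and 36.3% lower). These control libraries are also the controls of the treatment comparisons, so the comparisons share samples. In RNA from whole cultures, fewer cells of a type and less RNA per cell cannot be told apart. Below, rose and fell are used where the adjusted p was under 0.05, and called where the change was also at least 2-fold. HDAC9, a class IIa gene, had 179 counts in K562 DMSO and 5747 in THP-1 DMSO, and both THP-1 libraries lay far above both K562 libraries. Its level was 27.7-fold higher in THP-1 (log2 difference 4.79, standard error (SE) from counting 0.11). HDAC4, of the same class, had 338 counts in K562 DMSO and 1510 in THP-1 DMSO and was 3.86-fold higher in THP-1. HDAC7, which is best known from developing lymphocytes and blood vessels, went the other way, with 2223 counts in K562 DMSO and 400 in THP-1 DMSO (log2 difference -2.68, SE 0.08). The tubulin deacetylase HDAC6, with 2059 and 1148 counts, and HDAC11, with 152 and 31 counts, were also lower in THP-1, with log2 differences of -1.05 (SE 0.05) and -2.49 (SE 0.28). No class I gene was called. HDAC2 (log2 difference 0.79), HDAC1 (0.58) and the class IIa gene HDAC5 (0.30) were higher in THP-1, HDAC3 was lower (log2 difference -0.30), and HDAC8, at 332 and 444 counts, had an adjusted p of 0.063 in the exact binomial test.

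In K562, periplocin changed class IIa in both directions and raised HDAC11. Of the 10 genes, 4 were called, 2 higher (HDAC5 and HDAC11) and 2 lower (HDAC7 and HDAC9), where 18.3% of 15912 genes tested were called, 8.18% higher and 10.1% lower. Among genes with at least 100 counts in the pair, as all 10 have, 17.5% were called. HDAC5, a class IIa repressor of MEF2, rose from 1155 counts in DMSO to 2530 in periplocin. This was 2.15-fold (log2 fold change 1.10, SE 0.05, adjusted p = 1.93e-109 in the exact binomial test). HDAC11, the class IV enzyme and one that removes long-chain fatty acyl groups, rose from 152 to 326 counts, or 2.10-fold (log2 fold change 1.07, SE 0.14, adjusted p = 2.29e-14 in the exact binomial test). HDAC7 fell from 2223 to 1076 counts (log2 fold change -1.07, SE 0.05). HDAC9 fell from 179 to 67 counts, the largest change in the family (log2 fold change -1.44, SE 0.21). The fourth class IIa gene, HDAC4, had 338 and 289 counts and an adjusted p of 0.0519 in the exact binomial test (log2 fold change -0.25).

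The calls of HDAC5, HDAC7 and HDAC11 sit close to the 2-fold line. The 95% counting interval of the log2 fold change ran from 1.00 to 1.21 for HDAC5, from -1.18 to -0.97 for HDAC7 and from 0.80 to 1.35 for HDAC11, and from -1.85 to -1.04 for HDAC9. With an assumed dispersion between replicates of 0.04, HDAC9 was still called (adjusted p = 0.0227 in edgeR's exact test), while HDAC5 (0.0675), HDAC7 (0.0788) and HDAC11 (0.0992) were not. At a dispersion of 0.16 none was, with an adjusted p of 0.979 for HDAC9 in edgeR's exact test.

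Class I moved up by less in K562. HDAC1, the deacetylase shared by the NuRD, SIN3 and CoREST complexes, rose from 2165 to 3294 counts, or 1.49-fold (log2 fold change 0.58, SE 0.04). HDAC3, the enzyme of the NCoR and SMRT complexes, rose from 1564 to 1811 counts (log2 fold change 0.19). HDAC8, which deacetylates the cohesin subunit SMC3, had 332 and 403 counts (log2 fold change 0.25, adjusted p = 0.0316 in the exact binomial test), and HDAC2, the closest relative of HDAC1, had 2215 and 2408 (log2 fold change 0.09, adjusted p = 0.0462 in the exact binomial test). All 4 class I genes thus passed the p threshold and none the 2-fold line, where 59.4% of all genes passed the p threshold, 29.5% higher and 30% lower. At an assumed dispersion of 0.01, HDAC1 alone of class I passed (adjusted p = 0.0202 in edgeR's exact test, against 0.836 for HDAC2, 0.584 for HDAC3 and 0.467 for HDAC8), and without a filter on low counts HDAC2 did not (0.0591). HDAC6 stood at 2059 and 2017 counts, a log2 fold change of -0.06 whose 95% counting interval ran from -0.14 to 0.03. Erythroid markers moved with these changes. Of 15 markers, 14 were called higher in K562 periplocin and none lower, where 8.18% of all genes were called higher and 10.1% lower. The summed level of these markers went from 3148 to 15615 CPM. Their part in the HDAC values was not tested. Monocyte and macrophage markers summed to 111 and 126 CPM in the K562 libraries, with 2 of 12 called higher and 3 lower, and with TLR2 at 0 counts in DMSO and MPEG1 and CD86 at 0 in periplocin.

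In THP-1 none of the 10 genes was called, where 18% of 16016 genes tested were (8.27% higher and 9.76% lower), while 7 of the 10 had an adjusted p under 0.05 in edgeR's exact binomial test, beside 61.5% of all genes (30.2% higher and 31.3% lower). Of the 7, 5 rose and 2 fell. At an assumed dispersion of 0.01, HDAC1 (adjusted p = 0.025 in edgeR's exact test) and HDAC5 (0.000244) were the only ones of the 7 left, and HDAC3 was also lost with total counts (0.064). HDAC5 came nearest to the 2-fold line and rose from 1651 to 2585 counts, or 1.84-fold (log2 fold change 0.88, SE 0.05). HDAC1 rose from 3749 to 4714 counts, or 1.48-fold after scaling (log2 fold change 0.56, SE 0.03). HDAC4 rose from 1510 to 1789 counts (log2 fold change 0.47, SE 0.05). HDAC2, at 4449 and 4126 counts, and HDAC3, at 1471 and 1366, rose by 0.12 each on the log2 scale once scaled to their smaller periplocin library. HDAC6 fell from 1148 to 795 counts (log2 fold change -0.30, SE 0.07), and HDAC9 fell from 5747 to 4250 counts (log2 fold change -0.20, SE 0.03). HDAC7, at 400 and 383 counts, HDAC8, at 444 and 408, and HDAC11, at 31 and 34, had adjusted p-values of 0.156, 0.373 and 0.414 in the exact binomial test. At this depth the log2 fold change of HDAC11, 0.36, had a 95% counting interval from -0.34 to 1.06. Of 12 monocyte and macrophage markers, 6 were called higher in THP-1 periplocin and none lower. At any fold, 8 of them rose and 4 fell, the latter being LYZ, CSF1R, CD33 and CEBPA. The summed level of the 12 markers went from 1358 to 1857 CPM. Their part in the HDAC values was not tested. Erythroid markers summed to 252 and 243 CPM, of which TFRC alone held 246 and 240 CPM. Of the 13 tested, 2 were called lower and none higher.

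**Figure D2:**
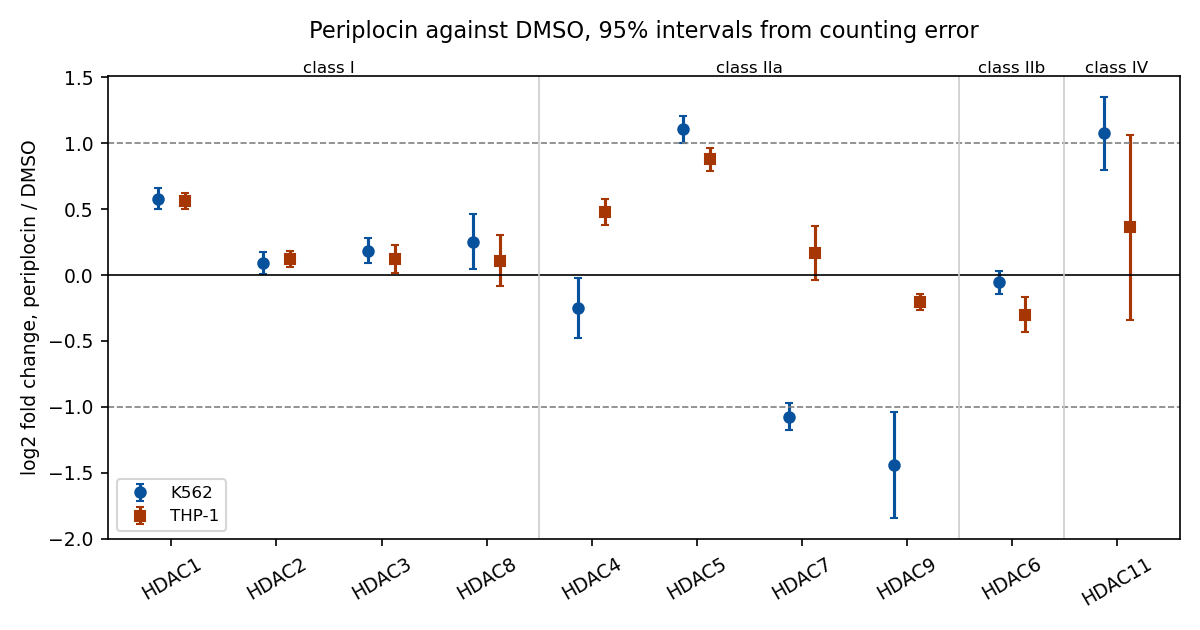
Log2 fold change of periplocin against DMSO for the 10 HDAC genes in K562 (circles) and THP-1 (squares), with bars for the 95% interval from counting error and dashed lines at a 2-fold change. HDAC1, HDAC2 and HDAC3 lie close together in the lines, whereas HDAC4, HDAC7 and HDAC9 lie apart.

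The responses of the lines were set against each other as the THP-1 log2 fold change minus that of K562. For HDAC1, HDAC2, HDAC3 and HDAC8 the differences lay between -0.14 and 0.03, and each 95% counting interval held 0. For HDAC1 the interval ran from -0.12 to 0.08. All 4 class IIa genes differed beyond counting error. The difference was 1.24 for HDAC7 (interval 1.01 to 1.47), 1.24 for HDAC9 (0.83 to 1.64), 0.73 for HDAC4 (0.48 to 0.97) and -0.23 for HDAC5 (-0.36 to -0.09). HDAC6 differed by -0.24 (-0.40 to -0.09), and HDAC11 by -0.71 with an interval from -1.46 to 0.04. How large a share of all genes differs in this way was not computed. With 1 library in each condition the spread between cultures is unknown, and no p-value can be given for these differences.

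All 4 libraries were also fitted together by edgeR's quasi-likelihood method, with terms for line and for treatment. Its error is how far the lines disagree, with 1 residual degree of freedom and a common biological coefficient of variation of 0.317. In it none of the 10 genes had an adjusted p under 0.05, and 0 of 13584 genes (0%) did, while 11.3% had an unadjusted p under 0.05. HDAC5 was the only member among the latter, with a log2 fold change of 1.00 (unadjusted p = 0.00956, adjusted p = 0.373 by edgeR). HDAC1 followed with a log2 fold change of 0.58 and an adjusted p of 0.481 by edgeR. DESeq2 with the same terms passed 1.08% of genes and none of the 10, and gave HDAC5 an adjusted p of 0.134.

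The median log2 fold change of the 10 genes was 0.14 in K562 and 0.15 in THP-1, beside -0.00 and -0.01 over all genes tested. Summed over the 10 genes, the K562 level went from 756 to 859 CPM and the THP-1 level from 999 to 1154 CPM. Class I made up most of both rises, going from 383 to 478 CPM in K562 and from 490.4 to 599 CPM in THP-1. Most of this was HDAC1, which went from 132 to 199 CPM in K562 and from 182 to 266 CPM in THP-1. The other class I genes moved less. Class IIa stood at 238 and 239 CPM in K562, with HDAC5 up and HDAC7 and HDAC9 down, and at 451 and 508 CPM in THP-1. HDAC6 went from 126 to 122 and from 55.7 to 44.9 CPM, and HDAC11 in K562 from 9.28 to 19.7 CPM.

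**Figure D3:**
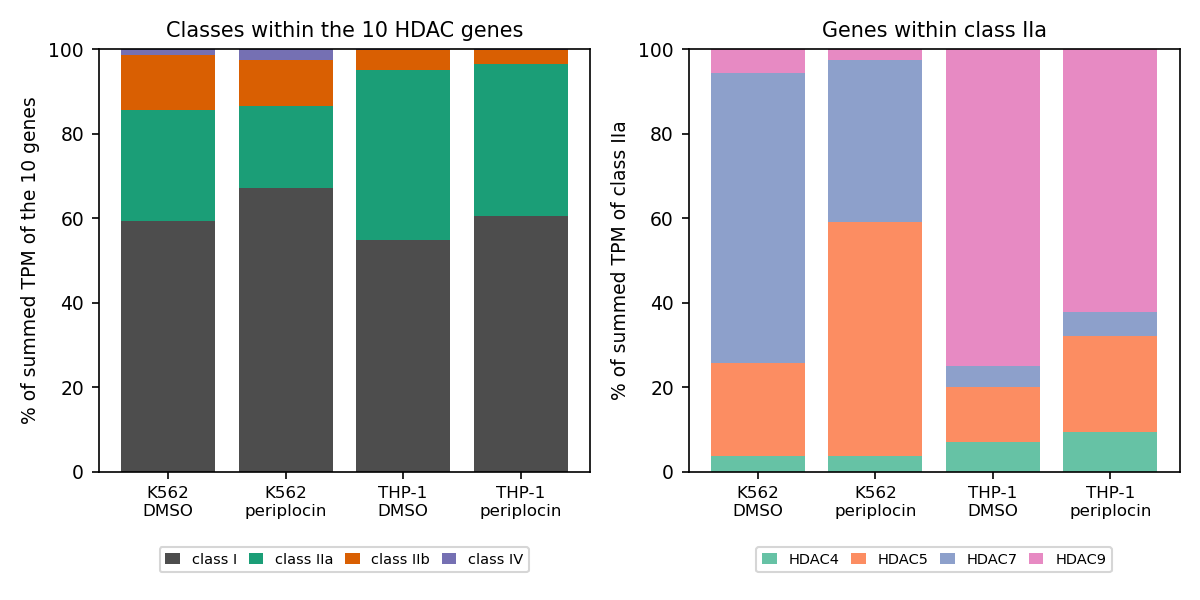
Share of each HDAC class in the summed TPM of the 10 genes (left) and of each gene in the summed TPM of class IIa (right), 1 bar per library. HDAC5 takes over from HDAC7 as the largest class IIa gene in K562, and HDAC9 is the largest in both THP-1 libraries with these transcript lengths, though not in THP-1 periplocin with exon unions.

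Per length, class I held 59.4% of the family's TPM in K562 DMSO and 67.2% in K562 periplocin, and 54.8% and 60.6% in the THP-1 libraries. Class IIa held 26.2% and 19.4% in the K562 libraries, against 40.4% and 36.0% in those of THP-1. HDAC6 held 13.0% and 10.9% for K562, then 4.63% and 3.20% for THP-1, and HDAC11 at most 2.49%, in K562 periplocin. Inside class IIa the leading gene of K562 changed with treatment. HDAC7 made up 68.7% of class IIa TPM in K562 DMSO and 38.5% in periplocin, while HDAC5 made up 21.9% and 55.4%. With the union of all exons as the length, HDAC7 went from 54.4% to 23.3% and HDAC5 from 36.8% to 71.3%, and with coding lengths from 59.3% to 29.1% and from 27.8% to 61.8%, so the order turned over in the same way. HDAC9 held 5.62% and 2.43% of class IIa TPM in K562. In THP-1 it held 74.9% in DMSO and 62.3% in periplocin, and HDAC5 went from 13.0% to 22.8%. With exon unions, HDAC9 led in THP-1 DMSO (48.0%) but not in periplocin, where HDAC5 had 44.4% and HDAC9 33.0%.

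HDAC10, the other class IIb gene, is given for comparison. It had 408 counts in K562 DMSO and 368 in K562 periplocin, and 801 and 414 in the THP-1 libraries. Its log2 fold change was -0.18 in K562 (adjusted p = 0.141) and -0.72 in THP-1 (adjusted p = 1.48e-16) in the exact binomial test. Of the 11 zinc-dependent genes it therefore had the lowest value in THP-1, below HDAC6 at -0.30. Of its 50-base stretches 43.1% are shared with MAPK12, which overlaps it on the same strand.

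**Figure D4:**
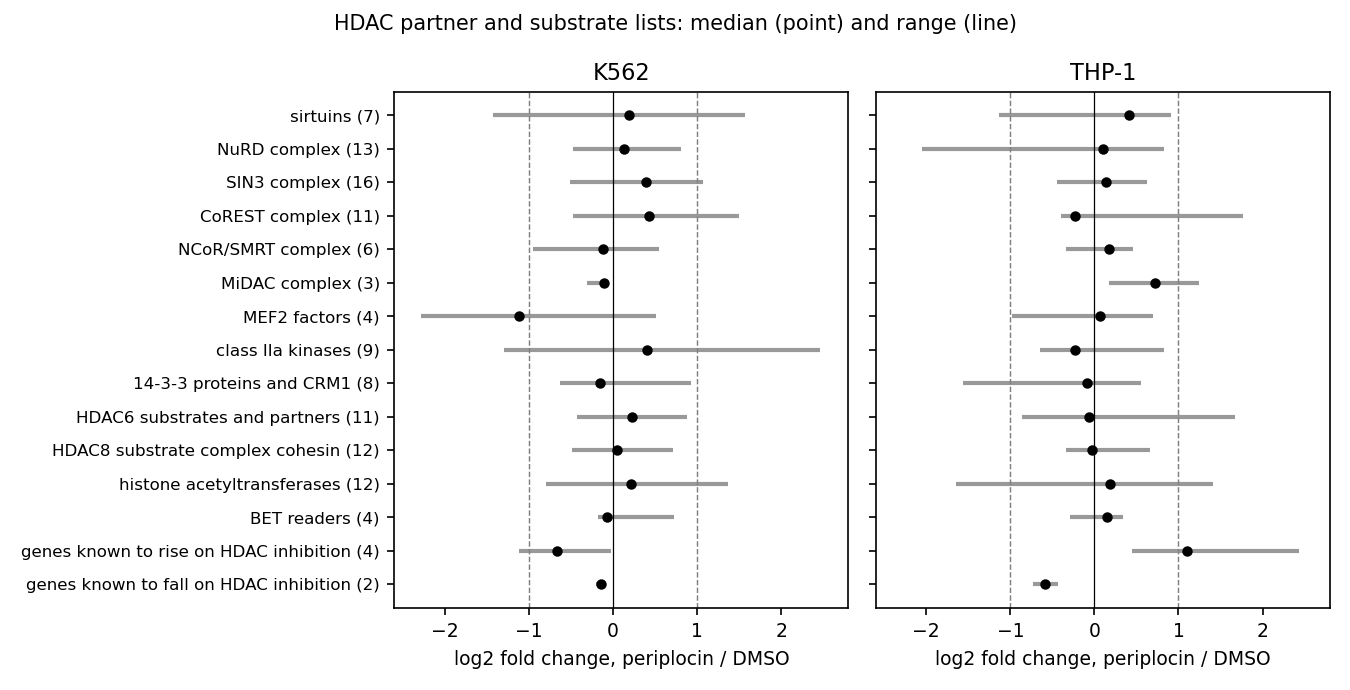
Median (point) and range (line) of the log2 fold change of periplocin against DMSO in lists of genes that work with HDACs, in K562 (left) and THP-1 (right), with the number of genes in each list in brackets and dashed lines at a 2-fold change. MEF2 factors have the lowest median in K562, and the genes known to rise on HDAC inhibition have the highest median in THP-1.

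Genes that work with class IIa were followed next, in lists written from general knowledge. Of the 4 MEF2 factors, which class IIa represses, 2 were called lower and none higher in K562, where 10.1% of all genes were called lower and 8.18% higher, with a median log2 fold change of -1.11. MEF2C, a factor of myeloid and lymphoid progenitors, had 3607 and 961 counts and fell by 1.93 on the log2 scale, and MEF2B, which shares exons with a readthrough transcript of its neighbour, fell from 244 to 51 counts (-2.28, SE 0.22). MEF2A fell from 1118 to 930 counts and MEF2D rose from 493 to 714, neither past 2-fold. In THP-1 none of the 4 was called. MEF2D, at 13395 counts in DMSO and 5788 in periplocin, fell by 0.98 on the log2 scale (SE 0.02). MEF2A rose from 980 to 1355 counts, MEF2C had 9067 and 8089 counts, a log2 fold change of 0.07 after scaling (adjusted p = 0.0249 in the exact binomial test), and MEF2B stood at 78 and 70 counts. MEF2D in DMSO was 23.5-fold higher in THP-1 than in K562.

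Of 9 kinases that phosphorylate class IIa HDACs and so send them out of the nucleus, 3 were called higher and none lower in K562, beside 8.18% of all genes called higher, and CAMK1D and CAMK4 rest on few counts. PRKD2 rose from 677 to 1440 counts (log2 fold change 1.06, SE 0.07) and CAMK1D from 20 to 44 (1.10, SE 0.39), while CAMK4 had 3 and 18 counts (2.46, 95% counting interval 0.76 to 4.17). In THP-1 none of the 8 kinases tested was called. Of the 14-3-3 proteins, which hold phosphorylated class IIa HDACs in the cytoplasm, and their exporter CRM1, none of 8 was called in either line. Over all genes, 18.3% were called in K562 and 18% in THP-1.

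Genes of the corepressor complexes that carry class I were counted against the 18.3% of all genes called in K562 and the 18% called in THP-1. In K562, called genes numbered 0 of 13 for NuRD, 1 of 16 for SIN3, 1 of 11 for CoREST, 0 of 6 for NCoR/SMRT and 0 of 3 for MiDAC. SAP30, a SIN3 subunit, rose there from 183 to 391 counts (log2 fold change 1.07, SE 0.13). RCOR2, a CoREST scaffold, rose 2.82-fold in K562, where it had 89 and 256 counts, and 3.39-fold in THP-1, where it had 24 and 70. In THP-1 the numbers were 1 of 13, 0 of 16, 1 of 11, 0 of 6 and 1 of 3. The NuRD remodeler CHD5 fell there from 30 to 6 counts. MIDEAS, the scaffold of the mitotic complex MiDAC, rose from 1596 to 3232 counts in THP-1 (1.25, SE 0.04), and stood at 851 and 802 in K562. The other MiDAC genes in THP-1 were TRERF1, which rose from 1735 to 2446 counts, and DNTTIP1, at 825 and 793 (log2 fold change 0.17). In K562, DNTTIP1 fell from 324 to 266 counts and TRERF1 had 23 and 22.

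Substrates and partners of HDAC6 and HDAC8 were counted in the same way. Of 11 HDAC6 substrates and partners, none was called in K562 and 2 were called higher in THP-1, a share close to the 18% of all genes called there. These were SQSTM1, the autophagy receptor p62, from 3011 to 8193 counts (log2 fold change 1.67, SE 0.03), and TUBA1A, an α-tubulin with close paralogs between which reads can be split, from 792 to 1992 (1.56, SE 0.06). None of the 12 cohesin genes, which include the HDAC8 substrate SMC3, was called in either line. The shares over all genes were 18.3% in K562 and 18% in THP-1.

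Among genes known to respond to HDAC inhibitors, CDKN1A, TXNIP and GSN fell in K562 and rose in THP-1. Of the 4 that rise on inhibition, none was called higher and 1 was called lower in K562, with a median log2 fold change of -0.66, whereas in THP-1 2 were called higher and none lower, with a median of 1.10. CDKN1A, the gene of the cell cycle inhibitor p21, fell from 825 to 386 counts in K562 (-1.12, SE 0.09) and rose from 500 to 2308 in THP-1 (2.44, SE 0.07). TXNIP, an inhibitor of thioredoxin, fell by 0.94 on the log2 scale in K562, from 15786 to 8354 counts, and rose from 11272 to 24790 in THP-1 (1.37). GSN, the gene of the actin-severing protein gelsolin, fell from 329 to 258 counts in K562 and rose from 7394 to 8594 in THP-1. Of those known to fall on inhibition, TYMS fell by 0.09 and CTPS1 by 0.20 on the log2 scale in K562, and by 0.74 and 0.43 in THP-1, with none called. Of all genes tested, 8.18% were called higher and 10.1% lower in K562, and 8.27% and 9.76% in THP-1. Whether lists as short as 4 and 2 genes depart from these shares was not tested. The RNA levels of these genes do not measure enzyme activity or acetylation, which were not analysed here.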

How the data were processed

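The authors sequenced poly-A RNA as paired-end reads and deposited an expected count per gene and library, an estimate that need not be whole, with no normalization and no pooling of libraries. The share of whole values is 87.4% to 88.3%. The submitters' processing notes name HISAT2, StringTie 1.3.1 and hg38. The counting program and annotation are not given in the sources used here. The columns not used numbered 0.

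Expected counts were rounded. Each pair of libraries was scaled by TMM in edgeR 4.0.16 (R 4.3.3) over genes with 1 count or more in that pair, and compared by edgeR's exact binomial test. P-values were adjusted over all genes by the Benjamini-Hochberg method, at 0.05, and log2 fold changes used a prior count of 0.25. Standard errors and 95% intervals came from the counts alone. The fit over 4 libraries kept genes that reach 10 counts in 2 libraries or more, and DESeq2 1.42.0 was its alternative. The tests were run on simulated data first. CPM used library totals, and TPM used transcript lengths from GENCODE release 29. Python 3.11.15 with pandas 2.3.3 was used for levels and lists.

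The members, the 23 gene lists and the tests were chosen with earlier results of these data known. Named genes are the members, HDAC10, every gene of a list of 4 or fewer, and up to 4 called genes per line from longer lists, except that some genes of the short lists are not reported here. Gene positions and sequences are from GENCODE release 29 on GRCh38, and the deposited identifiers carry no coordinates. Flow cytometry, quantitative PCR and western blots were not analysed here.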

Additional observations from a re-analysis of the deposited data

Results flagged for a closer look

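The response to periplocin differed between the lines beyond counting error, measured as the THP-1 minus the K562 log2 fold change, in 5 of the 10 genes. The differences were 0.73 for HDAC4, -0.23 for HDAC5, -0.24 for HDAC6, 1.24 for HDAC7 and 1.24 for HDAC9. HDAC4 and HDAC7 had opposite signs in the lines, although HDAC7 in THP-1 and HDAC4 in K562 did not pass the adjusted p threshold of the exact binomial test. The share of all genes whose responses differ in this way was not computed, so 5 of 10 has no background to be read against. The spread between cultures is unknown, so these differences were not tested beyond counting error.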

How the results depend on the processing

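Called HDAC genes numbered 4 in K562, 0 in THP-1 and 5 between the control libraries. With DESeq2's size factors, total counts, TMM without mitochondrial genes, a dispersion of 0.01, no filter, at least 10 counts in the pair or a prior count of 2, each of these numbers was the same. HDAC genes with an adjusted p under 0.05 at any fold went, at a dispersion of 0.01, from 8 to 5 in K562, from 7 to 2 in THP-1 and from 9 to 7 between the controls, and at 0.04 to 1, 0 and 5. With at least 10 counts in the pair K562 had 9. Without a filter they numbered 7, 6 and 9, and with total counts THP-1 had 6. In K562, 1 gene was called at a dispersion of 0.04, 0 at 0.16, 0 with a log2 fold change of at least 2 and 8 without a minimum fold. In THP-1, 7 passed without a minimum fold. Between the control libraries, 3 were called at a dispersion of 0.16, 3 with a log2 fold change of at least 2 and 9 without a minimum fold. The fit over 4 libraries called 0 of the 10 genes by edgeR and by DESeq2, without a filter and with total counts. No direction was reversed. The class IIa share of the family's TPM moved with the length used. With exon unions K562 had 24.5% (DMSO) and 22.1% (periplocin), and THP-1 had 29.7% and 29.2%. With coding lengths, chosen after seeing the data, K562 had 19.2% and 15.7%, and THP-1 had 27.8% and 26.4%. Between the control libraries, the median log2 difference of genes with at least 100 counts was 0.02 with TMM and -0.10 with total counts. Treatments are compared within lines in the fit over 4 libraries. No pairing of replicates was possible because each condition has 1 library. No replicate could be left out.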

Other observations

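Other enzymes of lysine acetylation were also read in these libraries. The lists here are read against the 18.3% of all genes called in K562 and the 18% called in THP-1. Of 12 histone acetyltransferase genes, 2 were called higher and none lower in K562, with a median log2 fold change of 0.22, beside -0.00 over all genes. KAT2B, the acetyltransferase PCAF, rose from 1362 to 3586 counts (1.37, standard error 0.05), and KAT5, the enzyme TIP60, from 349 to 855 (1.27, standard error 0.09). In THP-1, 1 was called higher and 1 lower, with a median of 0.18. In both lines 2 of 12 is close to the share over all genes. NCOA3, a nuclear receptor coactivator, rose there from 1471 to 3324 counts (1.41, standard error 0.05), and KAT2A, the acetyltransferase GCN5, fell from 1516 to 411 (-1.65, standard error 0.08).

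The sirtuins, which deacetylate with NAD+ in place of zinc, had 2 of 7 genes called in K562 and 1 of 7 in THP-1, the latter close to the share over all genes. SIRT5, a mitochondrial desuccinylase, had 587 and 223 counts in K562 and 147 and 57 in THP-1, and fell by 1.42 and by 1.13 on the log2 scale, while SIRT4 rose from 14 to 43 counts in K562 (1.58, standard error 0.44). The BET proteins, which read acetylated histones, were not called in either line. BRD2 rose by 0.72 on the log2 scale in K562, from 6163 to 10346 counts, and from 7482 to 8055 in THP-1 (0.34).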
